A study of Mus musculus with 4 samples.

Results

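Sox3, Pou3f4, Gata1, Esx1, Nr0b1, Tbx22 and Klf8 are X-linked genes for transcription factors, grouped here as developmental. All 7 were found by symbol on the X chromosome of a table of H3K27me3 enrichment per gene, which listed 22691 genes, and all 7 had values in both genotypes. They were compared with 763 other X genes and 19836 autosomal genes that also had values in both. H3K27me3, a trimethylated lysine in the tail of histone H3, was measured by chromatin immunoprecipitation and sequencing (ChIP-seq) with the antibody CMA323 in embryonic fibroblasts of female C57BL6/J fetuses at stage E13.5. The genotypes were Smchd1 +/+ (WT) and Smchd1 MD1/MD1 (MD1), the latter described by the series as deficient for the chromatin protein SmcHD1. Each had 1 ChIP library and 1 input library, so the genotypes differ by 1 library of each kind, no replicate error exists and no p-value is given. Whether fibroblasts of several fetuses were pooled is not given in the sources used here.

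Polycomb repressive complex 2 deposits H3K27me3, and in cells that do not use them, genes for developmental transcription factors are among its best-known targets, often over promoters rich in CpG dinucleotides. On the inactive X chromosome of female cells the same mark is laid down broadly after coating by Xist RNA, and SmcHD1 is concentrated on that chromosome. An X-linked developmental gene can thus carry the mark as a Polycomb target on both X chromosomes and as part of the inactive X, and a population value averages both alleles over all cells. More cells with the mark and more mark per cell cannot be told apart.

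Values are log2 enrichments, in which 0 is equal to the unstated denominator scaled per genotype and 1 unit is a 2-fold change. The enrichment is a ratio, so it does not grow with gene length by itself. The members' intervals run from 1.09 kb at Pou3f4 to 158 kb at Klf8. A mark confined to part of a long interval would be averaged down, so levels of long and short genes compare less directly. Differences are MD1 minus WT on this log2 scale. Over autosomal genes the median was -0.78 in WT and -0.90 in MD1, with a median difference of -0.27, and over all 770 X genes it was 0.84 and 1.40, with a median difference of 0.55. The 18 fibroblast marker genes were low, at a median of -2.70 in WT and -3.08 in MD1, whereas 5 epithelial markers had medians of 1.35 and 1.44 and 5 blood markers 0.65 and 0.51. ChIP does not measure expression, so whether any of the 7 genes was transcribed was not measured.

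All 7 genes were enriched for H3K27me3 in WT cells and all 7 had higher values in MD1 cells, by 1.43-fold to 2.51-fold. Their median was 1.52 in WT (range 0.998 to 2.35) and 2.40 in MD1 (range 1.64 to 3.02), and the median difference was 0.67. Every member stood above the X median and above at least 84.7% of autosomal genes in WT, and above at least 92.4% of autosomal genes in MD1. A positive difference was found at 69.1% of X genes and 31% of autosomal genes. Only Nr0b1 reached a 2-fold higher value, 1 of 7, against 22.1% of X genes and 1.61% of autosomal genes. No member was 2-fold lower, against 18.3% of X genes and 20.4% of autosomal genes. The autosomal share depended on level. Of the 1984 autosomal genes with the highest WT values (1.33 and above), 54 fell by that much, though Pou3f4, Tbx22 and Klf8 lay below that range. Measured relative to autosomal genes of like WT value and length, the share was 5.13% on autosomes and 17.9% on the X. On the X these shares do not set the members apart by number. Centred on the autosomal median difference, 3 members were at least 2-fold higher, against 37.4% of X genes.

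**Figure D1:**
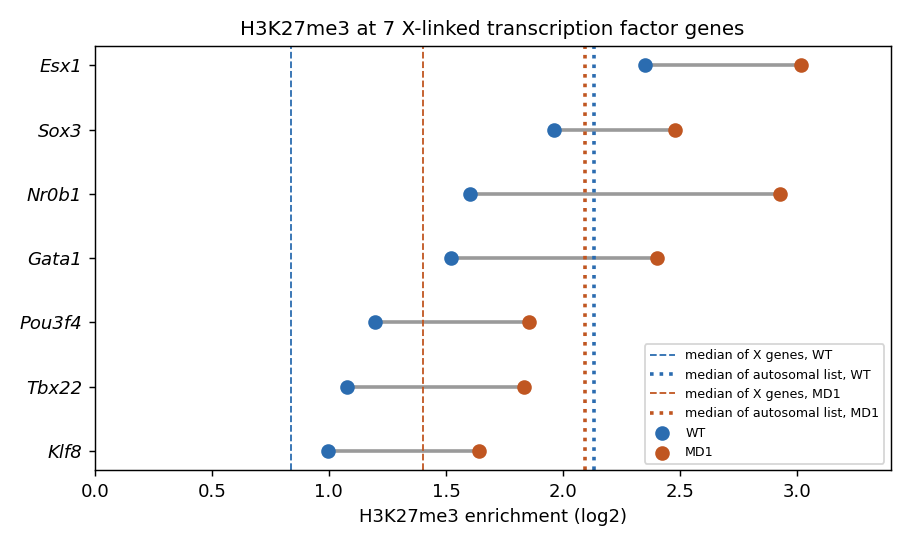
H3K27me3 enrichment (x axis, log2) at each of the 7 genes (y axis) in WT (blue) and MD1 (orange), 1 value per genotype. Dashed lines mark the medians of all X genes and dotted lines those of 117 autosomal developmental transcription factor genes. Every orange point lies to the right of its blue point.

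Esx1 encodes a paired-like homeodomain protein of the placenta and male germ line and was the most marked member in both genotypes. Over its interval in mm9 (chrX:133649936-133654865, minus strand) the WT value was 2.35 and the MD1 value 3.02, 0.67 higher. It ranked 8 of 770 X genes in WT and 5 in MD1. Sox3, a SoxB1 gene of neural progenitors and the developing pituitary, was next in WT (chrX:58144541-58146605, minus strand). It stood at 1.96 in WT and 2.48 in MD1, and its difference of 0.52 was the smallest of the 7.

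Nr0b1 encodes Dax1, an orphan nuclear receptor of adrenal and gonadal development, and had the largest difference. It stood at 1.60 in WT and 2.93 in MD1 (chrX:83437114-83441283, plus strand), 2.51-fold higher, and went from rank 99 to rank 7 among X genes. Its difference of 1.33 exceeded that of 89.0% of the other X genes and 99.2% of autosomal genes. In WT the values of Nr0b1 and Sox3 were in the opposite order to that in MD1.

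Gata1, the zinc finger factor that drives red cell and platelet precursors, had the next largest difference. Its WT value was 1.52 and its MD1 value 2.40 (chrX:7536386-7545036, minus strand), 0.88 higher, and it went from rank 118 to rank 46 on the X. Pou3f4, Tbx22 and Klf8 had the 3 lowest levels in WT and in MD1 and lay close to each other in both genotypes. Pou3f4, a POU-domain gene of the inner ear and brain (chrX:108009804-108010889, plus strand), was at 1.20 in WT and 1.86 in MD1. Tbx22, a T-box gene of the palate (chrX:104863303-104884319, plus strand), was at 1.08 and 1.84. Klf8, a Kruppel-like zinc finger gene (chrX:149672588-149830677, plus strand), was at 0.998 and 1.64. These 3 genes stood above 58.7% to 71.3% of the other X genes in WT, and above 61.1% to 73.7% in MD1. Without replicates, the order among neighbouring values was not tested.

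No replicate gives the error of these differences, but the form of the values bounds their counting error. In both columns over 99.9% of values could be written as a ratio of 2 whole numbers, on the log2 scale, shifted by 1 constant, the form of ChIP reads over input reads. If they are such ratios, the reads number at least those of the ratio in lowest terms, and the counting standard error of a difference has an upper limit. For the long gene Klf8 (ratios of 3393 to 1751 in WT and 1213 to 380 in MD1) the difference of 0.65 stood against a counting error of at most 0.095. For Tbx22 (579 to 283 and 427 to 117) 0.76 stood against at most 0.18, and for Gata1 (198 to 71 and 119 to 22) 0.88 against at most 0.39. For Nr0b1 (56 to 19 and 109 to 14) 1.33 stood against at most 0.56, and for Esx1 (99 to 20 and 356 to 43) 0.67 against at most 0.42. For the short genes Sox3 (34 to 9 and 57 to 10) and Pou3f4 (20 to 9 and 37 to 10) the limits, 0.73 and 0.77, exceeded the differences. Counting error leaves out the variation between cultures and immunoprecipitations.

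A second yardstick was the spread of differences among the 500 autosomal genes nearest in WT value within the same length quartile. Its standard deviation (SD) was 0.22 for Klf8, 0.27 for Tbx22, 0.33 for Gata1 and 0.55 to 0.60 for the 4 shorter genes. Relative to the median of these autosomal genes all 7 differences were positive, from 0.49 at Sox3 to 1.31 at Nr0b1. This relative difference was over 2 times the SD at Nr0b1, Gata1, Tbx22 and Klf8, at Esx1 and Pou3f4 it was between 1 and 2 times the SD, and at Sox3 below it.

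The enrichment was also taken off the log scale, where equal added amounts can be compared between genes of unequal level. Nr0b1 went from 3.04 to 7.62 times the denominator and Esx1 from 5.10 to 8.10. Gata1 went from 2.87 to 5.29 and Sox3 from 3.89 to 5.58. At Klf8 the smallest gain, 1.13, was found. The median gain was 1.68 for the members, 0.88 for all X genes and -0.08 for autosomal genes. On this linear scale Nr0b1, Esx1 and Gata1 ranked 10, 30 and 62 of 770 X genes. Sox3 ranked 152 by linear gain but 403 by log2 difference.

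**Figure D2:**
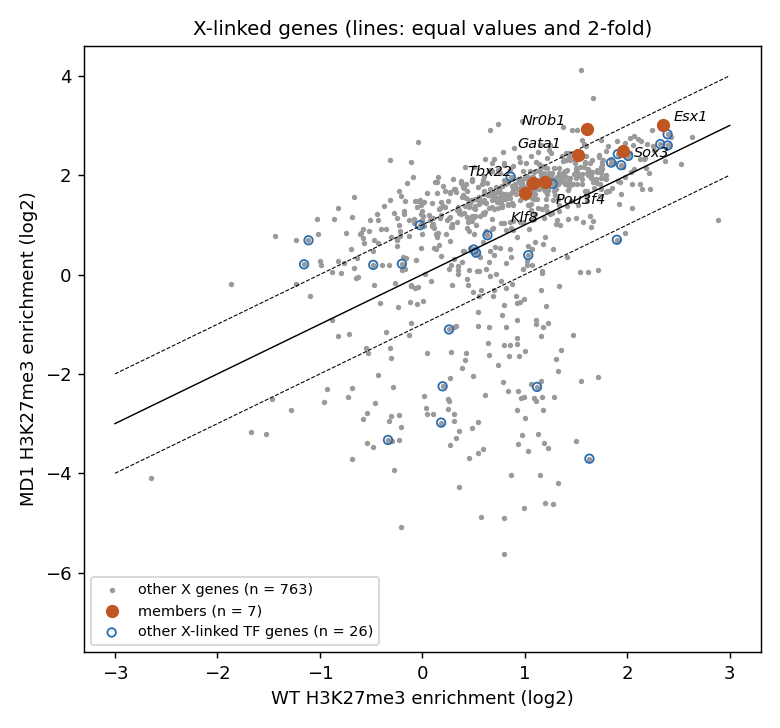
MD1 against WT enrichment (log2 on both axes) for X-linked genes, with the 7 members in orange, other X-linked transcription factor (TF) genes circled in blue and the remaining X genes in grey. The members lie above the line of equal values in the upper cloud of X genes, and only Nr0b1 lies beyond the 2-fold line.

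Promoter sequences of the members differed widely in CpG content. Windows of 250 bases upstream of RefSeq starts (GRCm38.p6) were found for 6 of the 7 genes. CG dinucleotides, which read the same on both strands, were counted in each, and 92.1% of the 32851 windows of all genes held at least 1, with a median of 6 (quartiles 2 and 16). Shown are Esx1, the most marked member, Nr0b1, with the largest difference, and Gata1, which was well marked with few CG, each 5′ to 3′ on its own strand with CG in capitals. They lie at chrX:137120327-137120576 (minus strand), chrX:86191525-86191774 (plus strand) and chrX:7967911-7968160 (minus strand) of GRCm38.p6.
Esx1: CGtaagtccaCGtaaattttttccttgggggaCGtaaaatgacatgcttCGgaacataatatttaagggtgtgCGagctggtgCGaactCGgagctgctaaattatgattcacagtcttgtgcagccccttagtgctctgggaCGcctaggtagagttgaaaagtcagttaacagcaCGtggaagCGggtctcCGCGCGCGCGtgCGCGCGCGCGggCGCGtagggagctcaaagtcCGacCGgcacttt
Nr0b1: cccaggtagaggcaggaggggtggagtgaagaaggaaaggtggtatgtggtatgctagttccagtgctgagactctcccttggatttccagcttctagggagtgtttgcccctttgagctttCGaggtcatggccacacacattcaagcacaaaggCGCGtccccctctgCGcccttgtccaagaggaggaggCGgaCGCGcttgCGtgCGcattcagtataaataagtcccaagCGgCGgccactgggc
Gata1: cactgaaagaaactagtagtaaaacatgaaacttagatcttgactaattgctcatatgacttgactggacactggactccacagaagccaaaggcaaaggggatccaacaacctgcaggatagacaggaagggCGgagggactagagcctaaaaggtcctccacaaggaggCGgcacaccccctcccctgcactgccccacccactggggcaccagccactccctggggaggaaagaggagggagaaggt

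Esx1 held 24 CG in its window, more than 88.0% of all windows. Pou3f4 held 13 and Nr0b1 11. Klf8 held 4 and 8 in its 2 windows, Gata1 2, and Tbx22 1 or 2 in each of its 3 windows. In these libraries the order of CpG content was not the order of the mark, since Gata1 stood above Pou3f4 in both genotypes. That order of values was not tested, and Pou3f4 had the widest counting limit of the members. Taking the most CpG-rich window of each gene, other X genes with 15 or more CG were at least 2-fold lower in MD1 in 71 of 179 cases (39.7%). Of those with 4 or fewer, 5 of 170 (2.94%) were. Among autosomal genes 2056 of 6538 (31.4%) and 223 of 3748 (5.95%) were lower in the same classes, but at unlike levels. The CpG-rich and CpG-poor classes had WT medians of -1.86 and 0.16 on autosomes, against 0.74 and 0.87 on the X. The gradients on the X and on autosomes therefore compare less directly. Esx1 was in the CpG-rich class and its value was higher in MD1. On autosomes the developmental transcription factor genes were CpG-rich, with 52 of 81 matched genes at 15 or more CG. Their median of 18 CG compares with 9.5 for the 6 members with a window, which leave out Sox3.

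Autosomal genes for developmental transcription factors served as the measure of Polycomb target levels. In WT cells the members' median lay below theirs, although Esx1 lay above it, and in MD1 cells the members' median lay above. The 117 listed genes with values had a WT median of 2.13, with quartiles of 1.65 and 2.47, and an MD1 median of 2.10, with quartiles of 1.49 and 2.50. They passed the 2-fold limit upward at 3 genes and downward at 8, against 1.61% and 20.4% of all autosomal genes. The members' median minus that of the list was -0.61 in WT and 0.31 in MD1. The MD1 gap rested on few genes, as it was 0.034 without Sox3, Esx1 or Nr0b1 and 0.071 without Gata1. In WT, 75 of the 117 genes stood above Sox3, 89 above Nr0b1, 92 above Gata1 and 41 above Esx1. In MD1 these numbers were 32, 15, 38 and 10. For Pou3f4 and Tbx22 they went from 99 to 79 and from 99 to 80, and for Klf8 from 99 to 85. The median difference of the autosomal list was -0.0015 and that of the members 0.67. The 39 Hox genes, which pattern the body axis, had a median difference of 0.74, as large as that of the members. Their single differences were mixed in sign, from -1.30 to 2.20, with 29 above 0 and 10 below. Of these Hox genes, 15 were at least 2-fold higher in MD1 and 1 at least 2-fold lower. Their median level went from 1.15 to 1.85, and the members' median was higher in both genotypes, by 0.37 and 0.55.

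**Figure D3:**
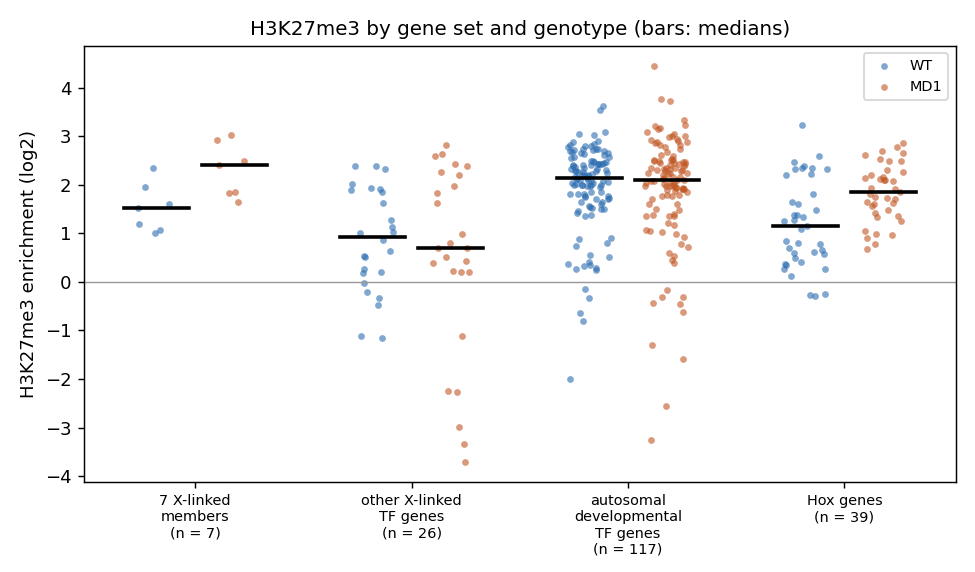
H3K27me3 enrichment (y axis, log2) of single genes in WT (blue) and MD1 (orange) by gene set, with medians as black bars. The members' median goes from 1.52 to 2.40, while that of the autosomal developmental transcription factor genes is 2.13 and 2.10.

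Each member was next set beside its own autosomal relatives. Of 67 such relatives with values, 0 passed the 2-fold limit upward in MD1 and 8 passed it downward, against 1.61% and 20.4% of autosomal genes. Of the 8, 6 were Klf genes. The relative with a larger difference than its X-linked member was Sox14 alone. The SoxB genes Sox1, Sox2, Sox14 and Sox21 regulate neural progenitors and neurons. Sox2 stood at 1.51 in WT and 1.35 in MD1, Sox21 at 1.71 and 1.39, and Sox1 at 2.81 and 2.67. Sox14 stood at 2.72 and 3.24, a difference of 0.52 like that of Sox3. The Pou3f4 relatives Pou3f1, Pou3f2 and Pou3f3, which act in the nervous system, were the most marked family. Pou3f1 was at 2.49 and 2.50, Pou3f2 at 2.64 and 2.48, and Pou3f3 at 2.88 and 2.78. Pou3f4 lay below all 3 in both genotypes, by 1.45 from their median in WT and by 0.65 in MD1.

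Gata genes split by level. Gata4 and Gata5, of heart and gut, stood at 2.08 and 2.01 in WT and at 2.24 and 2.08 in MD1. Gata2, a blood progenitor gene, was at 0.28 and -0.31, Gata3, a T cell gene, at 0.34 and -0.61, and Gata6, of endoderm and heart, at 0.41 and 1.05. Gata1 lay below Gata4 and Gata5 in WT and above all 5 in MD1. Nr0b2, which like Nr0b1 encodes a receptor without the usual DNA-binding domain, stood at 2.03 and 2.15. Nr5a1, encoding the steroidogenic factor SF-1, stood at 2.25 and 2.54, and Nr5a2 at 1.10 and 1.14. Nr0b1 was below Nr0b2 and Nr5a1 in WT and above both in MD1.

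Larger families held both marked and unmarked genes. Among 21 paired-like homeobox genes, Uncx went from 2.62 to 2.61 and Otp from 2.28 to 2.46, while the mesenchyme genes Prrx1 and Prrx2 went from -2.90 to -4.84 and from -1.48 to -1.63. None of these genes had a difference as large as the 0.67 of Esx1. In WT only Uncx stood above Esx1, and in MD1 none did. Among 15 T-box genes, Tbx1 stood at 2.77 and 2.93 and T (brachyury) at 2.40 and 2.81. Tbx15 stood at -2.01 and -3.26, Tbx6 at -1.61 and -1.84, and Tbx3 at 0.24 and -0.31. Tbx22, below the T-box median of 1.47 in WT, was above their median of 1.65 in MD1.

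Klf8 differed most from its family. The 16 autosomal Klf genes had a median of -1.78 in WT and -3.16 in MD1. At 6 of them the MD1 value was lower by 2-fold or more, against 20.4% of autosomal genes. Klf6 stood at -3.60 and -5.26, Klf4 at -2.87 and -3.28, Klf16 at -2.28 and -4.20, and Klf2 at -1.35 and -4.28. The MD1 ratios of Klf16 and Klf2 reduced to 1 to 18 and 1 to 19, so few reads may lie behind both. Klf14 (1.33 and 1.31) and Klf17 (1.13 and 1.29) were the relatives with more of the mark than Klf8 in WT, and none of the 16 had more in MD1.

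**Figure D4:**
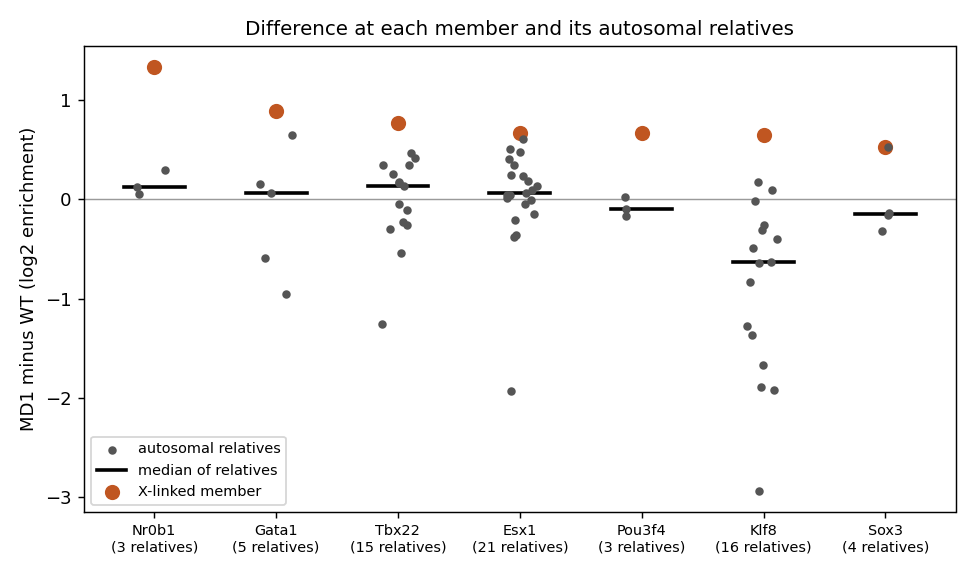
MD1 minus WT difference (y axis, log2) at each X-linked member (orange) and at its autosomal relatives (grey, medians as bars), by member (x axis). Each member lies above all its relatives except Sox3, which Sox14 equals to 2 decimals.

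Other X-linked transcription factor genes did not all behave alike. Of 26 with values, out of 30 listed, 7 passed the 2-fold limit downward in MD1 and 4 upward, against 18.3% and 22.1% of all X genes. Cdx4, a caudal homeobox gene, stood at 2.39 in WT and 2.60 in MD1. It was more marked than Sox3 in WT, with a difference of 0.20, below every member's. Among the lowest differences were those at genes known to be broadly expressed: Zfx (1.63 to -3.71), Zxdb (0.18 to -2.98) and Tfe3 (-0.34 to -3.33). The highest were at zinc finger genes and a heat shock factor gene: Zfp300 (-1.11 to 0.69), Zfp182 (-1.15 to 0.21), Hsf3 (0.86 to 1.97) and Zfp711 (-0.024 to 0.99). Zfx and Nr0b1 had nearly the same WT value, 1.63 and 1.60, and MD1 values of -3.71 and 2.93.

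Genes beside the members on the X mostly carried less of the mark. Within 500 kb, 0 of the neighbours of Sox3 (6 genes), Nr0b1 (5), Tbx22 (7), Pou3f4 (3) and Esx1 (14) had a higher WT value than the member. Sox3 was 1.78 above its neighbours' median in WT and 0.95 above it in MD1, since all 6 neighbours had larger differences than Sox3 itself. Its nearest, Gm715, C230004F18Rik, Gm7073 and Cdr1, differed by 1.09, 1.58, 1.41 and 2.16. Of the genes nearest Pou3f4, Gm7134 differed by 0.74, Cylc1 by 1.20 and Rps6ka6 by 0.95, all more than the 0.66 of Pou3f4, and Gm6377, 1614 kb away, by 0.43. Nr0b1 was the reverse, with a larger difference than Mageb4 (1.23), Gm41 (1.12), 5430427O19Rik (1.01) and Samt3 (0.76).

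Gata1 lies in a gene-dense region, and its neighbours split. Of 38 genes within 500 kb, 9 passed the 2-fold limit downward and 8 upward, where over all X genes the shares were 18.3% and 22.1%. Hdac6, a deacetylase gene 11.4 kb away, stood at 0.28 in WT and 0.19 in MD1. Suv39h1, a histone H3 lysine 9 methyltransferase gene 93.3 kb away, went from -0.46 to -2.59. Eras, a Ras gene of embryonic stem cells, stood at 2.03 and 2.74, and Glod5 at 0.96 and 2.25. The neighbours' median difference was -0.057, against 0.88 at Gata1.

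Around Esx1, Fam199x and Il1rapl2 differed by 0.64 and 0.66, nearly as Esx1 did, Slc25a53 by -0.35 and Tex13a by 1.40. Around Tbx22, 2610002M06Rik and Fam46d on one side differed by -0.33 and 0.25, and 4933401B06Rik and Itm2a on the other by 1.60 and 1.01. Klf8 did not stand out from its surroundings, as 8 of 11 neighbours were higher in WT. Rragb, Foxr2 and Kctd12b differed by 0.48, 0.41 and 0.54 and Ubqln2, a ubiquilin gene, by 2.21. No member's interval overlapped another listed gene, so none shared reads in that way.

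**Figure D5:**
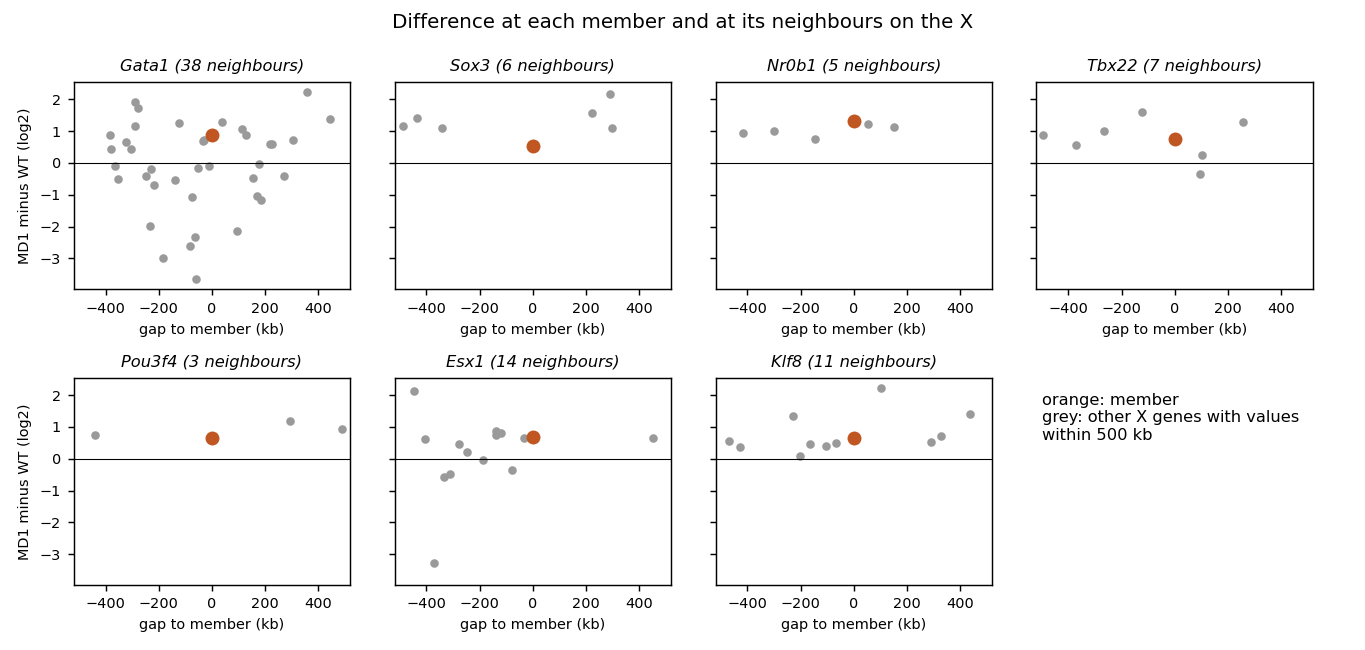
MD1 minus WT difference (y axis, log2) of the members (orange, at 0) and of other X genes with values within 500 kb (grey) by the gap to the member in kb (x axis). Neighbours of Gata1 spread from -3.66 to 2.24, while those of Sox3 all lie between 1.09 and 2.16.

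For the members the X gene with the most similar pair of values was sought, as the smallest distance over the WT and MD1 values, which are only 2 points per gene. For Sox3 this was Dmrtc1b (1.91 and 2.42). For Nr0b1 it was Rhox6 (1.51 and 2.90), a homeobox gene of the reproductive tract and placenta, and for Gata1 it was Stard8 (1.56 and 2.39). Esx1 was nearest to Pcsk1n (2.24 and 2.91), Tbx22 to Gja6 (1.07 and 1.84) and Pou3f4 to BC023829 (1.19 and 1.87). The distances ran from 0.011 for Tbx22 to 0.15 for Esx1. Compared with the 50 other X genes nearest in WT value, which include genes with lower and genes with higher values in MD1, the members' differences were higher by 0.042 at Klf8 to 0.96 at Nr0b1.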

How the data were processed

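The authors deposited 1 table with a symbol, position, strand and 1 log2 value of H3K27me3 enrichment per gene for each genotype, per the file headers. Build mm9 comes from the submitters' processing notes. The sources used here name no aligner, counting method or denominator. The library depth is unknown. Starts are printed with the first base counted as 1.

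Genes with both values were kept and no low-value filter was applied. Ratios in lowest terms (tolerance 1e-11, whole numbers up to 20000) were sought with the constant at which small primes divided numerators and denominators equally often. They gave constants of 0.043 in WT and -0.032 in MD1. This step and the matching of autosomal genes were tested on simulated data. The simulation held some raised genes but no built-in shift between genotypes at the others. It therefore did not test whether matching removes such a shift. Python 3.11.15, pandas 2.3.3 and numpy 2.4.6 were used. Promoter sequences are from RefSeq (GRCm38.p6).

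With 1 library of each kind there was no test between genotypes, and 2-fold was a fixed limit of size. The members, lists and limits were chosen with earlier results of these data known. Named were all members, all relatives in families of up to 5, in larger families the 2 highest and 2 lowest in WT and the 2 largest differences, other X-linked factors, and the 2 nearest genes on each side. Some genes that this rule names are not reported here. Linear gains, the 50 nearest X genes and the CpG counts were added after the data were seen. Endothelial and neural markers (5 genes each) had WT medians of 0.070 and 0.50, and MD1 medians of 0.38 and 0.68.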

Additional observations from a re-analysis of the deposited data

How the results depend on the processing

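No paired analysis was possible because each genotype had 1 library of each kind. The median difference of the members, 0.67, was positive under every alternative run: 0.56 when 1 was added to the linear ratio, 0.94 centred on the autosomal median, 0.78 as a mean, 0.32 relative to the 50 X genes nearest in WT value (added after the data were seen), and 0.66 to 0.71 leaving out 1 member at a time. A pseudocount of 0.01, matching to 500 autosomal genes, quantile mapping and denominators of at least 20 moved it by less than 0.1. Every member's difference was above 0, so pseudocounts, centring, the mean, the denominator filter and leaving out 1 member could not have made the median negative. Only matching to autosomal genes, quantile mapping and the 50 nearest X genes could have done so. The number of members at least 2-fold higher, 1, became 6 at a limit of 1.5-fold, 0 at 3-fold, 3 after centring and 0 among the 4 members with denominators of at least 20, which leave out Nr0b1. No member was lower under any of these, but none of these settings could have turned a positive difference into a lower value. Nor was any member 2-fold lower under matching to 500 autosomal genes or quantile mapping, which could have done so. The members' median minus that of the autosomal list, -0.61 in WT, turned positive against autosomal relatives (0.19) and Hox genes (0.37). It was -0.24 against the tenth of autosomal genes with the highest WT value, -0.40 with means and -0.77 to -0.57 leaving out 1 member. In MD1 the gap of 0.31 was 1.01, 0.55 and 0.53 against the same references, 0.43 with means, 0.064 with denominators of at least 20 and 0.034 to 0.35 leaving out 1 member. Of 39 alternative values of single members, all 39 were positive, though pseudocounts, centring and the denominator filter could not have reversed a positive difference. These references differ from the list in which genes they hold, and otherwise the cause of a shift was not tested. Unknown depth limits Sox3 and Pou3f4 most.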
